A study of Pimephales promelas with 270 samples.

Results

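The transcripts described here were almost silent in the youngest control larvae of a fathead minnow study and clearly present in the oldest. They were chosen in 2 steps from read counts scaled to a common library total (CPM, the count of a transcript divided by all counts of its library, times 1000000). First, the mean had to lie below 1 CPM in the youngest controls, which held for 8212 of 34856 transcripts. Of these, the 150 with the highest mean in the oldest controls were kept and ranked by that mean, so that rank 1 is the most abundant. The levels in those 2 control groups therefore chose the members and are given as a description, without a test. The member at rank 150 had 5.01 CPM in the oldest controls and the next transcript, at rank 151, had 4.99 CPM. At the other limit, the highest youngest-control mean among members was 0.995 CPM, and the nearest transcript left out had 1.01 CPM there although it reached 35.6 CPM in the oldest controls.

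The fathead minnow (Pimephales promelas) is a freshwater fish of common use in toxicity tests. The study exposed its larvae to propranolol, a drug that blocks beta-adrenergic receptors, at ages of 4, 5 and 6 days post fertilization and for 6, 24 or 48 h. Each of the 9 combinations of age and duration is called a set and is written as in the labels, so that 4D_6H is the youngest and 6D_48H the oldest. Every set has controls without propranolol (0 mg/l), a low dose of 0.66 mg/l and a high dose of 3.3 mg/l, with 10 libraries labelled in each of the 27 groups. The table holds 266 of the 270 libraries, which leaves 8 controls in 6D_48H and 9 libraries at each dose in 6D_24H, and the other 4 are not analysed here. No strain is named. The labels do not say whether a library holds 1 larva or a pool, nor whether larvae of a group were kept in different vessels. The p-values below therefore rest on the spread among libraries alone, which may be partly technical. The treatment text attached to the samples describes ethinyl estradiol, whereas the title, the design text and the dose labels describe propranolol, which is taken as the agent here. The labels leave unsaid which end of the exposure an age refers to. Age plus duration, from 4.25 to 8 days, is used below to order the sets and would be the age at sampling if ages refer to its start.

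In fish, hatching and the first days after it are a time when organs take up their larval function: the gut and its glands begin to digest, the swim bladder fills, and muscle, skin, gills and blood cells change from embryonic to larval forms of many proteins. Genes that serve such functions can be nearly silent in the embryo and abundant days later. Beta-adrenergic receptors set heart rate and take part in metabolism in fish as in mammals. The transcripts carry bare identifiers, and 0 of 34856 matched the RefSeq gene table of the species, so no gene name, role, tissue or sequence is given for any member. At most 4 identifiers are printed and other members are called by rank.

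Library totals ran from 5.37 to 31.0 M counts (M, 1000000 counts) with a median of 14.3 M. Over the transcripts that are not members, 224 of 266 libraries were most like the controls of their own set. Likeness was the correlation of log2 levels, taken as deviations from the mean of the 9 control groups. Every set has its own prefix in the library names and may have been prepared separately, so that a difference between sets in age or duration and one in processing cannot be told apart. The summed CPM of all 150 members put 4 libraries apart from their groups. Library 34 of the high dose in 4D_24H, the deepest of all with 31.0 M counts, had a sum of 1665 CPM, against 192 to 439 CPM in the other 9. Over the other transcripts it was nearest its own controls, but with a correlation of only 0.12. The other high-dose libraries of that set had 0.36 to 0.71 with these controls. Library 14 of the 6D_6H controls had 4846 CPM, against 2244 to 3056 CPM in the others. On the log2 scale library 37 of the high dose in 6D_6H was low with 520 CPM, and over the other transcripts it was most like the 4D_6H controls. Library 37 of the high dose in 6D_48H was low with 3012 CPM and was most like the 6D_24H controls. So were high-dose libraries 31, 34 and 40 and low-dose library 19 of 6D_48H, whose sums did not stand apart. Many results that rest on the 4 libraries apart from their groups are given with and without them, and the others with all libraries.

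The median member had a mean of 0.461 CPM in the 4D_6H controls and 11.1 CPM in the 6D_48H controls, both fixed by the choice. Between these ends it had 1.30 CPM in 4D_24H, 1.98 CPM in 5D_6H, 3.82 CPM in 4D_48H, 4.13 CPM in 5D_24H, 6.27 CPM in 6D_6H, 6.90 CPM in 5D_48H and 8.40 CPM in 6D_24H controls. No set with a larger age plus duration had a lower level by this measure. As a share of its own 6D_48H level, the median member stood at 7.87% in 4D_24H, 31.8% in 4D_48H, 51.2% in 6D_6H and 78.6% in 6D_24H controls. Not every member kept climbing, since 34 had a higher mean in 6D_24H than in 6D_48H controls and 20 had a higher mean in 5D_48H. In RNA of larvae, more cells of a type and more RNA per cell cannot be told apart.

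Appearance was dated by the first set, in the order of age plus duration, in which the control mean reached 1 CPM and stayed there in all later sets. Where 2 sets had the same age plus duration, both had to reach it. By this measure 89 of 150 members had appeared by 5 days, 109 by 5.25 days, 127 by 6 days, 138 by 6.25 days and 142 by 7 days, while 8 were counted only at 8 days. The 1 CPM mark is also the limit of the rule, which set the count at 4.25 days to 0, and 59.3% of members had passed it by 5 days. The dates moved with the mark. At 0.5 CPM 67 members, or 44.7%, were already at or above it in the 4D_6H controls and stayed there, while at 5 CPM 7 members had appeared by 5 days, 60 by 6 days and 88 by 7 days.

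**Figure D1:**
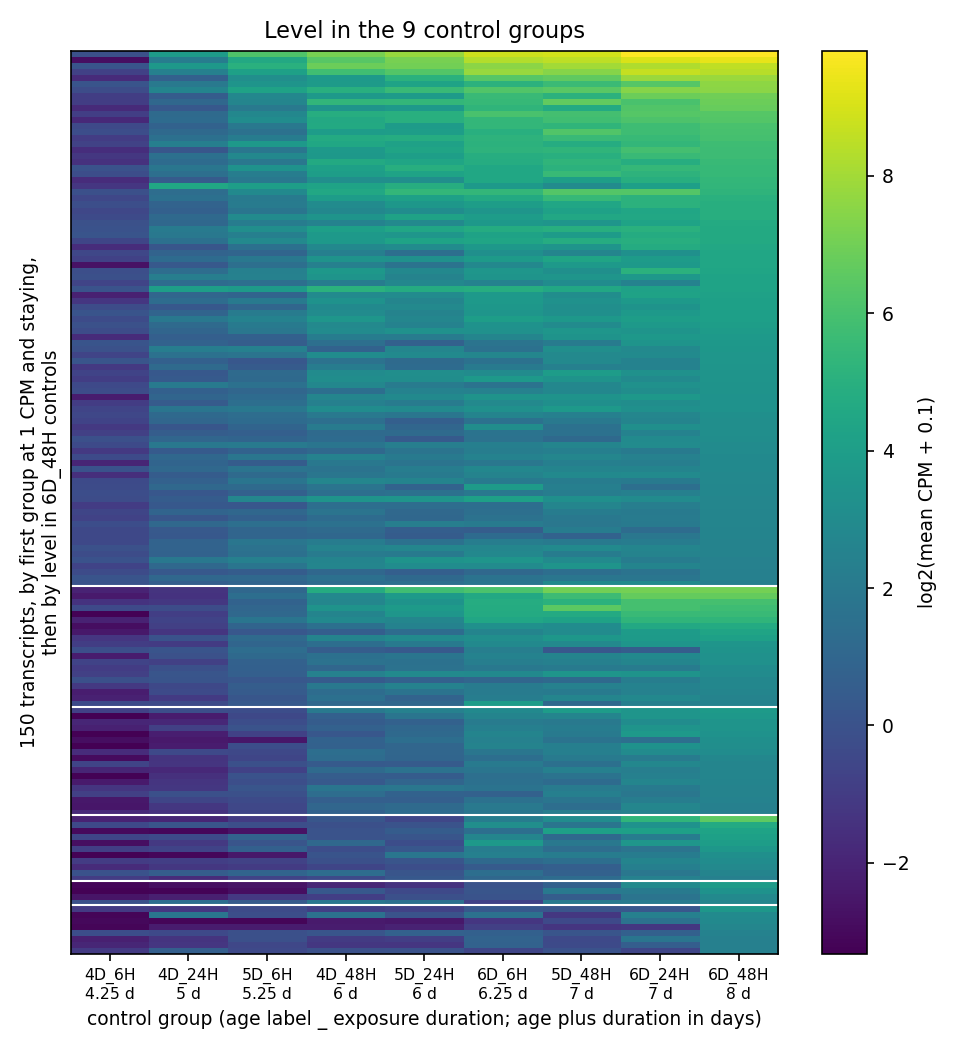
Heat map of the 150 members (one line each) in the 9 control groups, ordered left to right by age plus duration in days. Colour is log2 of the mean CPM plus 0.1, white lines part the members by the stage at which they reached 1 CPM and stayed, and the top block holds the 89 members that had done so by 5 days.

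The 10 most abundant members held 55.1% of the summed CPM of all members in the 6D_48H controls. The member ranked 1 had a mean of 0.860 ± 0.679 CPM in 4D_6H controls, 14.8 ± 8.15 CPM in 4D_24H, 74.3 ± 42.9 CPM in 5D_6H, 141 ± 58.3 CPM in 4D_48H, 225 ± 121 CPM in 5D_24H, 450 ± 186 CPM in 6D_6H, 480 ± 264 CPM in 5D_48H, 906 ± 170 CPM in 6D_24H (SD, n = 10 each) and 885 ± 139 CPM in 6D_48H controls (SD, n = 8). Its mean levels in the 2 oldest groups differed by less than the SD of either. In 5D_48H its 10 controls ran from 62.9 to 933 CPM with a median of 565 CPM, so the group's range covered the means of 6 other groups.

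The member ranked 2 was nearer to silence at the start, with 0 to 0.138 CPM in the 4D_6H controls, and had 4.42 CPM in 4D_24H, 83.8 CPM in 4D_48H, 362 CPM in 5D_48H and 652 CPM in 6D_48H controls as means. The member ranked 3 had 12.9 CPM in 4D_24H, 118 CPM in 4D_48H, 260 CPM in 5D_48H and 386 CPM in 6D_48H controls. The member ranked 4 peaked a step before the end, with 403 ± 108 CPM in 6D_24H (SD, n = 10) and 337 ± 73.9 CPM in 6D_48H controls (SD, n = 8), a difference within the SD. The member ranked 7 had 5.92 CPM in 4D_24H, 31.6 CPM in 4D_48H, 86.7 CPM in 5D_48H and 186 CPM in 6D_48H controls. The member ranked 10 did not climb at each step, with 99.7 ± 32.0 CPM in 5D_48H and 65.5 ± 20.8 CPM in 6D_24H (SD, n = 10 each), and 118 ± 13.9 CPM in 6D_48H controls (SD, n = 8). The member ranked 8 was the one of the first 10 that appeared after 5 days. It had 0 to 0.629 CPM in 4D_24H controls and 0.469 to 4.56 CPM in 5D_6H controls, then 9.26 to 97.9 CPM in 5D_24H and 106 to 220 CPM in 6D_24H controls, and these 4 ranges overlapped only between the first and the second.

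Some abundant members were present in most libraries of a group and near 0 in others. The member ranked 6 ran from 0.573 to 164 CPM with a median of 81.5 CPM in 6D_24H controls, and from 0.749 to 646 CPM with a median of 136 CPM in 6D_48H controls. The member ranked 9 ran from 0.243 to 67.9 CPM with a median of 36.1 CPM in 5D_48H controls. In the oldest controls 133 of 150 members reached 1 CPM in all 8 libraries, 17 did not, and 5 reached it in fewer than 6. In 8 members more than 50% of the summed 6D_48H level came from 1 library, with a highest share of 91.3% for the member ranked 116, which had a mean of 6.55 ± 16.7 CPM (SD, n = 8). Of the 8 members dated to 8 days, 5 belonged to these, and their group means rest mainly on 1 library, or on 2 for the member ranked 102. That member already had a mean of 3.52 CPM in 4D_24H controls and was below 1 CPM later, with 0.342 CPM in 5D_48H controls. The other 3, ranked 106, 146 and 147, were spread over at least 7 of the 8 libraries. The member ranked 106 had means of 0.0114 CPM in 4D_24H, 0.646 CPM in 5D_48H, 2.97 CPM in 6D_24H and 7.34 CPM in 6D_48H controls, so that 1 of the 2 sets at 7 days was below the mark and the other above it. Those ranked 146 and 147 had 0.647 and 0.664 CPM in 5D_48H controls. They were above the mark in 6D_6H with 1.72 and 1.62 CPM, and in 6D_24H with 3.29 and 1.41 CPM. Those ranked 69 and 139 had 0.991 and 0.999 CPM in 5D_48H and were above the mark in 6D_6H and 6D_24H. The date of 8 days for these members rests on the 5D_48H controls.

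The 7 control groups that had no part in choosing the members allow tests, with edgeR's quasi-likelihood test, TMM scaling and Benjamini-Hochberg adjustment over 32555 transcripts at a false discovery rate of 0.05. Longer durations at 1 age came first. In 4D_48H against 4D_24H controls 103 of 150 members were higher and 0 lower, with a median log2 fold change of 2.00, while 3.59% of all transcripts were higher and 1.14% lower. In 5D_24H against 5D_6H controls 84 were higher and 1 lower, with a median of 1.16, against 6.66% and 7.04% of all transcripts. In 5D_48H against 5D_24H controls 66 were higher and 0 lower, with a median of 0.89, against 2.95% and 1.8%. In 6D_24H against 6D_6H controls 55 were higher and 5 lower, with a median of 0.69, against 9.52% and 9.83%. In each of these comparisons the median over all transcripts tested was between -0.01 and 0.00. The members' share of higher calls was above the background each time, and their share of lower calls was below it. Members were chosen to be low in the youngest and high in the oldest controls. More higher and fewer lower calls between these ends follow in part from that choice, so these shares do not test the rise. The fit also included the youngest and oldest controls, with a single filter on low counts, so all 150 members were tested in each comparison among controls. In the fits of single sets with their 3 doses, 110 members passed this filter in 4D_24H and 125 in 5D_6H. Other members thus entered comparisons with those groups only through groups where they were higher, which include the oldest controls.

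Older larvae at equal duration gave counts of the same kind. In 6D_6H against 5D_6H controls 119 members were higher and 1 lower, with a median log2 fold change of 1.83, against 6.29% and 5.01% of all transcripts. In 5D_24H against 4D_24H controls 111 were higher and 0 lower, with a median of 1.99, against 16.5% and 14.5%. In 6D_24H against 5D_24H controls 111 were higher and 0 lower, with a median of 1.32, against 10.5% and 10.8%. In 5D_48H against 4D_48H controls 90 were higher and 0 lower, with a median of 1.11, against 9.82% and 9.44%. These comparisons share control groups with each other and with those above, so they are not independent of one another. The choice of members favours higher calls here as well. For 27 members all 8 comparisons passed the test as higher, as they did for 0.249% of all transcripts, and 6 members passed in none of the 10 comparisons made among controls, as against 37.7% of all transcripts. Without library 14 of the 6D_6H controls, 116 members were higher in 6D_6H than in 5D_6H and 59 were higher in 6D_24H than in 6D_6H. The levels of many members were separated entirely: in 6D_6H against 5D_6H 58 of the 150 members tested were higher without overlap of the 2 groups' libraries. These 58 were among the 119 called higher. Of all 32555 transcripts tested, 236 or 0.725% were higher there without overlap, among 2047 called higher.

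A pair of comparisons matched sets of equal age plus duration, in which the older-labelled larvae had the shorter time in the vessel. In 5D_24H against 4D_48H controls, both at 6 days, 13 members were higher and 8 lower, with a median of 0.22 on the log2 scale, against 14.4% and 13.7% of all transcripts. In 6D_24H against 5D_48H controls, both at 7 days, 42 were higher and 1 lower, with a median of 0.37 and 116 of 150 members above 0, against 7.21% and 8.24% of all transcripts. At 6 days the members' shares of calls, 13 and 8 of 150, lay below those of all transcripts, and at 7 days the share of higher calls lay above. The 6D_48H controls that chose the members share the age label of 6D_24H and the duration of 5D_48H. The share at 7 days may follow in part from that choice, so it does not test a difference. These 2 comparisons share no library, and 5 of the members higher in 5D_24H were also among the 42 higher in 6D_24H, which is 38.5% of 13 and 11.9% of 42. Of the 8 members lower in 5D_24H, 4 were among the 42. With 42 of 150 members on that list, some sharing arises by chance, so overlaps this small show neither a repeat nor a reversal. Whether age, time in the vessel or separate processing of sets moved with the differences between these sets cannot be told apart.

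**Figure D2:**
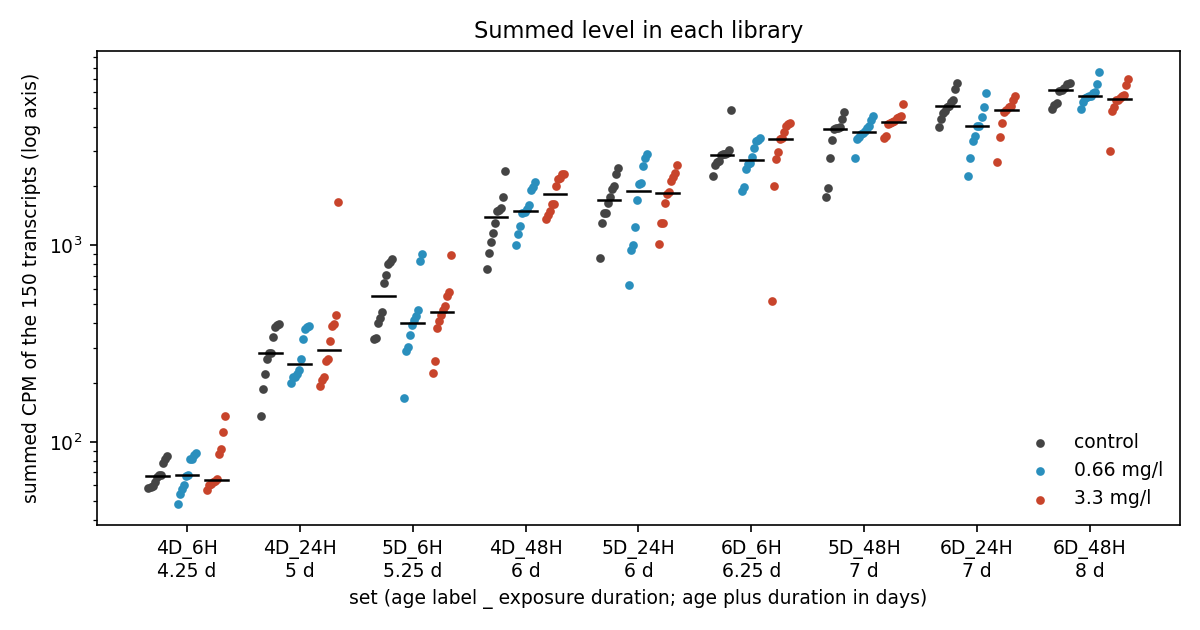
Summed CPM of the 150 members in each of 266 libraries (points, log axis) for the 9 sets ordered by age plus duration, with controls, 0.66 mg/l and 3.3 mg/l side by side and a bar at each group's median. Medians of the controls run from 67.3 CPM in 4D_6H to 6118 CPM in 6D_48H, and the high-dose library at 1665 CPM in 4D_24H stands above the other 9 of its group.

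Members varied more between libraries of a group than other transcripts did. In the control groups that had members at a mean of 5 CPM or more, the median coefficient of variation of such members was 31.5% in 6D_24H, 36.9% in 6D_6H and 54.9% in 4D_24H, where there were 7 of them. Other transcripts at or above 5 CPM had a median of 15.4% to 20.4%. Members and other transcripts were not matched for level beyond that limit, so a difference in level may add to the difference in spread. The deviations were partly shared between members: the median correlation over pairs of members was 0.56 among 10 controls in 4D_24H, 0.46 in 4D_48H, 0.28 in 5D_48H and 0.10 in 6D_48H, against 0.00 to 0.06 for other transcripts. These correlations describe values that share a library, its depth and its stage. A library high in 1 member thus tended to be high in others. The median correlation was larger in 4D_24H, 5D_6H and 4D_48H than in the later sets, but the members compared were not the same. They were those at a mean of 5 CPM or more in each group, 7 in 4D_24H, 67 in 4D_48H and 150 in 6D_48H. A change with stage therefore cannot be read from these values.

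Members also lay next to each other in the numbering of the transcripts. Of the 150, 36 fell in 14 runs of consecutive numbers, the longest of 4. The 22 consecutive pairs had a median correlation of within-group deviations of 0.78 over 266 libraries, with a range from -0.16 to 0.89, against 0.185 over all pairs of members. Consecutive transcripts may be forms or near copies of 1 gene that share reads, which was not tested, and the count of 150 may stand for fewer genes. Joining consecutive transcripts whose log2 levels correlated at 0.7 or more over all 266 libraries left 129 units. Unlike the within-group values above, that correlation includes the differences between groups, which members share in part by their choice.

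Whether either dose shifted the appearance was read first from the dates. Over the 7 sets other than 4D_6H and 6D_48H, members at 1 CPM and staying there numbered 89 in controls, 83 at the low dose and 98 at the high dose by 5 days, then 109, 105 and 103 by 5.25 days, 127, 130 and 131 by 6 days, and 142, 142 and 145 by 7 days, in the same order. At the high dose 24 members were dated earlier than in controls, 115 the same and 11 later. At the low dose 9 were earlier, 128 the same and 13 later. Without the libraries that stood apart, the high dose had 82 members by 5 days, 12 dated earlier and 15 later, and the low dose had 8 earlier and 13 later, so the lead of the high dose at 5 days and its surplus of earlier dates rested on those libraries. At 6, 6.25 and 7 days the high dose then had 130, 142 and 145 members, and controls had 127, 139 and 142. The balance also depended on the mark: at 2 CPM the high dose had 35 earlier and 17 later with all libraries, and from group medians in place of means the high dose had 19 earlier and 21 later, and the low dose 10 earlier and 29 later. In library 34 of the high dose in 4D_24H 143 members were at 1 CPM or more, against 63 as the lowest and 84.5 as the median over the 10 libraries of that group. These dates have no test.

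**Figure D3:**
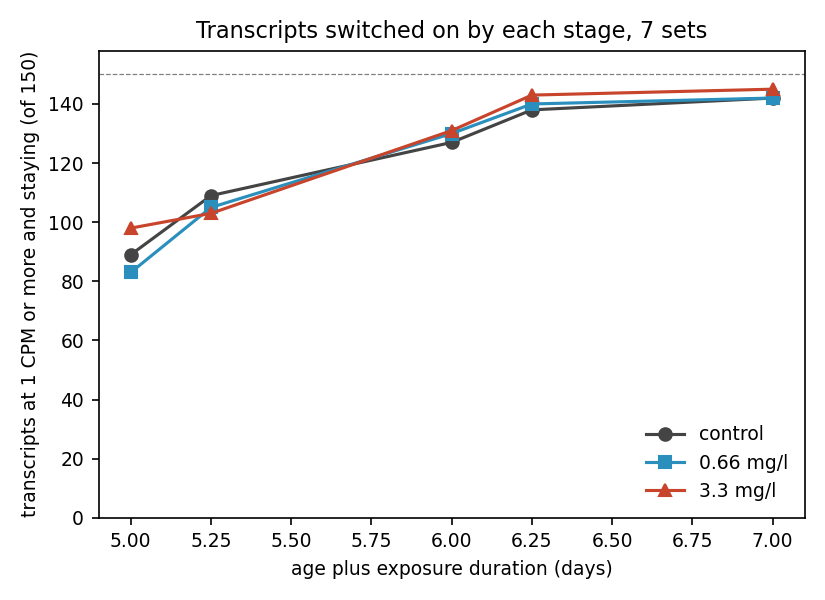
Number of the 150 members (vertical axis) whose group mean had reached 1 CPM and stayed there by each age plus duration in days (horizontal axis), for controls, 0.66 mg/l and 3.3 mg/l over 7 sets. The 3 lines cross: at 5 days they stand at 89, 83 and 98 (82 at 3.3 mg/l without the libraries that stood apart), and at 7 days at 142, 142 and 145.

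At 4D_24H, the earliest set with an independent control, 0 of 110 members that passed the filter on low counts differed between the high dose and controls, where 0.0136% of 29440 transcripts were called (0.0102% higher and 0.0034% lower), by edgeR's quasi-likelihood test with Benjamini-Hochberg adjustment within the set. DESeq2 and limma-voom also called 0, and 21 had an unadjusted p under 0.05, as had 5.76% of all transcripts. The median log2 fold change of these members was 0.30 with 83 above 0, against 0.00 for all transcripts, and it became 0.00 without library 34. The low dose gave 0 calls, with 4 members and 7.39% of all transcripts under an unadjusted p of 0.05, 0% of all transcripts called and a median of -0.02.

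At 4D_48H the high dose moved 3 of 142 members tested, 2 higher and 1 lower, while 0.854% of 29508 transcripts were higher and 0.136% lower, and so few calls do not set the members apart from transcripts at large. The member ranked 79 ran from 8.54 to 17.0 CPM with a median of 12.8 CPM at the high dose, and from 4.61 to 12.7 CPM with a median of 5.99 CPM in controls. Its groups overlapped, and the log2 fold change was 0.89 ± 0.15 (SE, n = 10 each), with an adjusted p of 0.000362 by edgeR. The member ranked 95 ran from 3.08 to 9.77 CPM at the high dose, against 1.30 to 3.80 CPM in controls, with a log2 fold change of 1.22 ± 0.21 and an adjusted p of 0.000921 by edgeR. The member ranked 51 was lower, with 17.2 to 26.4 CPM and a median of 20.4 CPM at the high dose, against 18.6 to 40.3 CPM and a median of 36.1 CPM in controls. Its log2 fold change was -0.69 ± 0.12, with an adjusted p of 0.000495 by edgeR. The median over all 142 members tested was 0.29, with 106 above 0 and 37 under an unadjusted p of 0.05, against a median of -0.01 and a share of 10.7% for all transcripts. At the low dose 0 members passed, 7 had an unadjusted p under 0.05, as had 3.27% of all transcripts, 0% of all transcripts were called, and the median was 0.13.

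At 5D_48H the high dose gave 2 higher and 0 lower members of 149 tested, where 0.947% of 29886 transcripts were higher and 0.274% lower. The member ranked 138 ran from 2.46 to 16.4 CPM with a median of 4.58 CPM at the high dose, and from 0.57 to 4.95 CPM with a median of 2.03 CPM in controls. Its log2 fold change was 1.60 ± 0.33 (SE, n = 10 each), with an adjusted p of 0.00692 by edgeR. The member ranked 147 ran from 0.602 to 2.24 CPM at the high dose, against 0.419 to 1.04 CPM in controls. Its log2 fold change was 0.95 ± 0.24, with an adjusted p of 0.0396 by edgeR. It was dated to 8 days because its mean in these controls was below 1 CPM. DESeq2 called 5 members higher and 1 lower here, with 1.55% and 0.71% of transcripts, and limma-voom 1 higher, with 0.954%. At the low dose 0 passed, with 11 members and 8.18% of all transcripts under an unadjusted p of 0.05, 0% of all transcripts called and a median of 0.09.

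In 5D_6H, 5D_24H and 6D_6H neither dose gave a call among members, nor did DESeq2 or limma-voom. For the high dose 8 of 125, 7 of 142 and 4 of 146 members in these sets, in that order, had an unadjusted p under 0.05, as had 4.11%, 6.06% and 5.11% of all transcripts, with medians of -0.17, 0.06 and -0.01, and 0%, 0.0795% and 0% of all transcripts were called. For the low dose the numbers were 4, 9 and 2 members against 2.44%, 9.36% and 3.39% of all transcripts, with medians of -0.25, 0.05 and -0.07, and 0%, 0.0663% and 0% of all transcripts called. The median of the high dose in 6D_6H was 0.21 without the libraries that stood apart.

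At 6D_24H the low dose stood out: 15 of 148 members fell and 0 rose, where 3.17% of 29703 transcripts were lower and 2.76% higher than in controls. The median log2 fold change of the 148 was -0.33 with 116 below 0, against a median of 0.01 for all transcripts. Of these members 52 had an unadjusted p under 0.05, as had 21.4% of all transcripts. DESeq2 called 28 members lower and 2 higher, with 5.85% and 4.66% of the 23368 transcripts it gave an adjusted p, and limma-voom 25 lower, with 3.34% of all transcripts. The count rested in part on single libraries, and was 9 without library 19 and 25 without library 25, both of the low dose. Over transcripts that are not members, low-dose libraries correlated with the controls of this set at 0.16 to 0.53. Controls had 0.49 to 0.72 and high-dose libraries 0.36 to 0.67. Low-dose libraries 19, 25 and 28 were nearest the 6D_48H controls, as were controls 1 and 10 and high-dose library 31. Whether this goes with the members' lower levels was not tested. The summed CPM of all members ran from 2243 to 5907 CPM with a median of 4018 CPM at the low dose, and from 3978 to 6697 CPM with a median of 5077 CPM in controls, so the groups overlapped. The high dose of the same set gave 0 calls among members by edgeR, 2 lower by DESeq2 (0.277% of transcripts) and 1 lower by limma-voom (0.0808%), with 25 members and 10.0% of all transcripts under an unadjusted p of 0.05, 0.586% of all transcripts higher and 0.104% lower, and a median of -0.21 with 110 of 148 below 0. Since the 2 doses share their controls, their values do not support each other. Set directly against the low dose, the high dose gave 0 calls by edgeR, DESeq2 and limma-voom, with 23 members and 16.6% of all transcripts under an unadjusted p of 0.05, 0.963% and 0.276% of all transcripts higher and lower, and a median of 0.11.

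The 15 members ran from rank 1 to rank 145, and their log2 fold changes from -1.57 to -0.58 with a median size of 0.89. The most abundant member of all, ranked 1, ran from 405 to 994 CPM with a median of 603 CPM at the low dose, and from 584 to 1204 CPM with a median of 911 CPM in controls. Its log2 fold change was -0.58 ± 0.17 (SE), with an adjusted p of 0.0388 by edgeR. The member ranked 42 ran from 10.0 to 17.1 CPM at the low dose and from 14.4 to 47.4 CPM in controls, with a log2 fold change of -1.03 ± 0.18 and the lowest adjusted p of the 15, 0.0017 by edgeR. The member ranked 107 ran from 0.182 to 3.53 CPM at the low dose, against 1.54 to 9.27 CPM in controls, with a log2 fold change of -1.47 ± 0.40 and an adjusted p of 0.0281 by edgeR. The ranges of the 2 groups overlapped for each of the 15, and how often this held among all transcripts called lower was not counted. In the other sets with independent controls 0 of the 15 passed at the low dose, with medians from -0.27 over the 12 tested in 5D_6H to 0.29 over the 9 tested in 4D_24H.

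**Figure D4:**
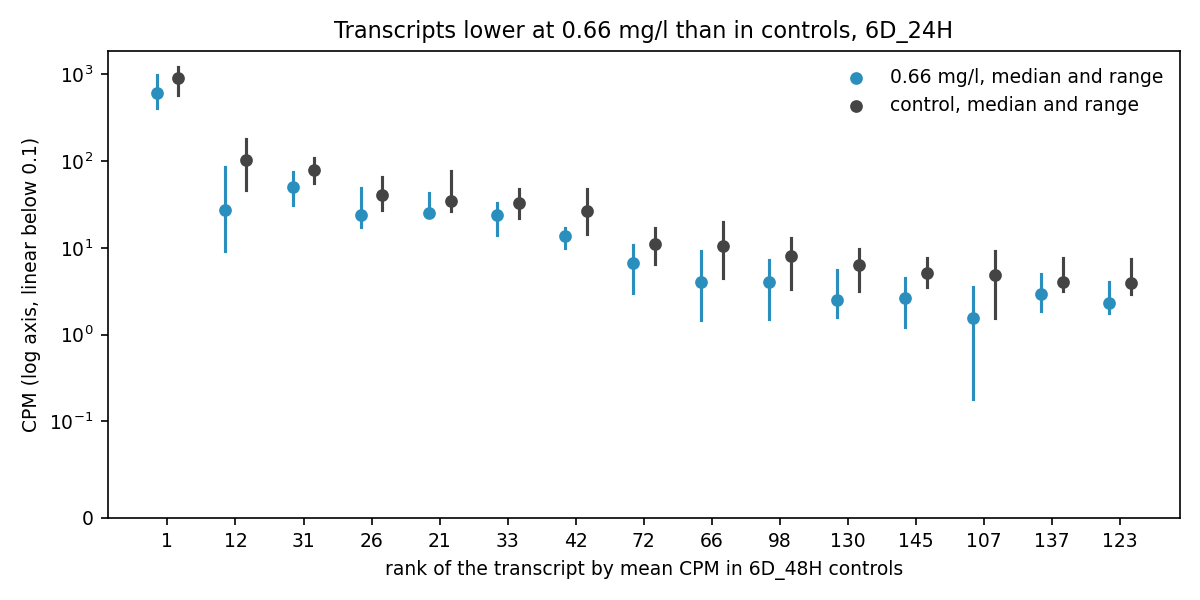
CPM (log axis, linear below 0.1) of the 15 members lower at 0.66 mg/l than in controls in 6D_24H, with the median (point) and full range (line) of 9 low-dose libraries left of those of 10 controls, by rank. Every low-dose median lies below the control median and every pair of ranges overlaps.

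At 6D_48H the controls chose the members, so that the doses are compared with each other. Against the low dose, 14 of 149 members fell at the high dose and 0 rose, where 1.19% of 30247 transcripts were lower and 2.83% higher. The median log2 fold change was -0.20 with 106 below 0, against -0.01 for all transcripts. Leaving out single libraries gave 10 to 18 calls, and leaving out library 37, which stood apart, gave 13 lower and 1 higher. Over transcripts that are not members, high-dose libraries 31, 34, 37 and 40 and low-dose library 19 were nearest the 6D_24H controls. The 6D_48H controls were each nearest their own group. Whether this goes with the members' lower levels was not tested. The member ranked 14 ran from 41.6 to 67.9 CPM with a median of 53.4 CPM at the high dose, and from 62.1 to 101 CPM with a median of 87.4 CPM at the low dose. Its log2 fold change was -0.65 ± 0.12 (SE, n = 10 each), with an adjusted p of 0.000702 by edgeR. The member ranked 45 had the largest change of the 14, with 3.35 to 30.8 CPM at the high dose, against 9.26 to 67.5 CPM at the low dose, a log2 fold change of -1.46 ± 0.37 and an adjusted p of 0.023 by edgeR. The member ranked 79 was lower here, with 2.59 to 9.43 CPM at the high dose, against 4.38 to 16.3 CPM at the low dose, and an adjusted p of 0.0115 by edgeR. In 4D_48H it was higher at the high dose than in controls, but was not called against the low dose there. The member ranked 51 was lower in both sets, here with 7.68 to 17.5 CPM at the high dose, against 12.8 to 30.5 CPM at the low dose, and an adjusted p of 0.0213 by edgeR. The difference between the sets was not tested for either. The 14 members share 0 with the 15 that fell at the low dose against controls in 6D_24H. That is another comparison, and lists this short would share few members by chance, so the 0 does not set the lists apart.

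High against low dose elsewhere gave few calls by edgeR. In 4D_48H 2 members were higher and 1 lower, where 0.807% and 0.156% of all transcripts were, and in 5D_48H likewise 2 were higher and 1 lower, where 2.89% and 2.4% were. DESeq2 called 3 higher and 5 lower in 5D_48H, with 4.86% and 4.28% of transcripts. The member ranked 107 was 1 of the 2 higher in 5D_48H, with 1.4 to 5.4 CPM at the high dose, against 0.630 to 2.47 CPM at the low dose, and an adjusted p of 0.016 by edgeR. In 4D_6H, 4D_24H, 5D_6H, 5D_24H and 6D_6H 0 members passed by edgeR, DESeq2 or limma-voom. In that order 5 of 55, 21 of 110, 4 of 125, 5 of 142 and 7 of 146 members tested had an unadjusted p under 0.05. The shares of all transcripts were 4.14%, 5.20%, 3.67%, 5.65% and 4.87%. The values for 4D_24H include library 34, which stood apart. Of all transcripts 0% were called in these sets, except 0.00663% in 5D_24H.

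**Figure D5:**
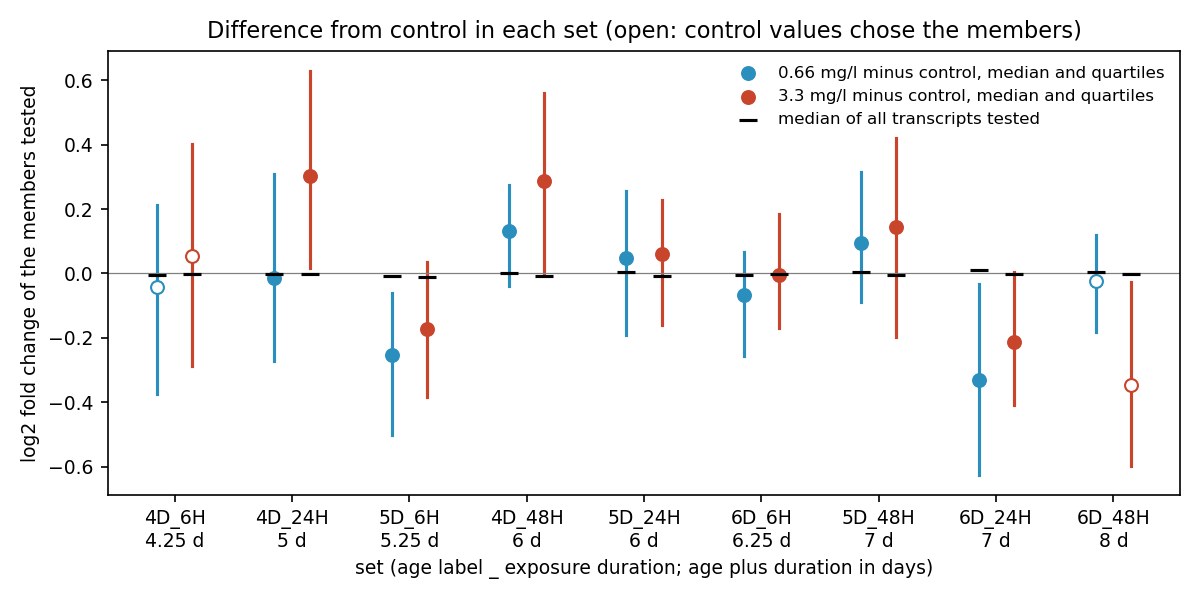
Median log2 fold change (point) with quartiles (line) of the members tested at 0.66 and 3.3 mg/l against controls in the 9 sets, with the median of all transcripts tested as a dash near 0; open points mark sets whose controls chose the members. The high dose stands at 0.30 in 4D_24H, which becomes 0.00 without library 34, and at 0.29 in 4D_48H. Among the filled points both doses lie below 0 in 5D_6H, 6D_24H and 6D_6H, where the high dose is at -0.01, or 0.21 without the libraries that stood apart.

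The mean of the 7 sets with independent controls gave 1 summary per dose, from a fit of 21 groups and 33402 transcripts. A single filter on low counts held for this fit and 149 members passed it, while 110 passed in 4D_24H alone and 125 in 5D_6H. The other members entered those sets only through groups where they were higher. Values over 149 members thus include some that would not be tested in those sets alone. At the high dose 1 of 149 members rose and 0 fell, where 3.34% of all transcripts were higher and 1.59% lower, with 35 members and 18.8% of all transcripts under an unadjusted p of 0.05 and a median of 0.10 on the log2 scale, against -0.01 for all transcripts. At the low dose 0 passed, with 12 members and 10.7% of all transcripts under an unadjusted p of 0.05, 0.0958% of all transcripts called and a median of -0.06, and limma-voom called 0 as well. The high dose against the low dose gave 17 higher and 0 lower, where 3.81% and 3.35% of all transcripts were called, with a median of 0.15 and 117 of 149 above 0. That count was 3 without the libraries that stood apart, 4 without the 4D_24H set and 7 without the 6D_24H set, and 3 by limma-voom, which called 3.87% of all transcripts higher. For the high dose against controls the count was 11 higher without the 5D_6H set, where 3.78% of all transcripts were higher, and 0 without the 4D_24H, 4D_48H or 5D_48H set, so that it too rested on single sets.

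The member that rose, FMt028942 (rank 12), had a mean high-dose log2 fold change of 0.67 ± 0.19 (SE), with an adjusted p of 0.0157 by edgeR's quasi-likelihood test, and did not pass without library 34 and the other libraries that stood apart (0.40, adjusted p of 0.21) or without the 4D_24H set (0.28, adjusted p of 0.38). It was near 0 in 4D_24H, with 0.0754 to 15.3 CPM and a median of 0.377 CPM at the high dose, and 0 to 1.08 CPM and a median of 0.152 CPM in controls. The single value of 15.3 CPM came from library 34. The member did not pass the filter on low counts in that set alone. In 4D_48H it ran from 3.41 to 28.6 CPM with a median of 15.2 CPM at the high dose, against 0.219 to 16.0 CPM with a median of 6.92 CPM in controls. In 5D_48H it ran from 53.1 to 112 CPM with a median of 76.9 CPM at the high dose, against 13.5 to 122 CPM with a median of 40.8 CPM in controls. Neither difference passed within its set, with adjusted p of 0.303 and 0.277 by edgeR. In 6D_24H it was among the 15 members that fell at the low dose, with 9.10 to 85.3 CPM and a median of 27.2 CPM, against 46.9 to 178 CPM and a median of 103 CPM in controls, a log2 fold change of -1.57 ± 0.39 and an adjusted p of 0.0188 by edgeR.

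FMt020134 (rank 5) had the next lowest adjusted p among members with a value above 0 and did not pass, with a mean high-dose log2 fold change of 0.64 ± 0.21 and an adjusted p of 0.0535 by edgeR. Without the 5D_6H set it passed, with 0.88 and an adjusted p of 0.00534 by edgeR. Its single-set values ran from -0.84 ± 0.60 in 5D_6H to 2.48 ± 0.89 in 4D_24H, where library 34 held 61.6 CPM, against 0.281 to 9.43 CPM in the other high-dose libraries. Its mean without library 34 is not given here. In 5D_48H it ran from 75.6 to 327 CPM with a median of 161 CPM at the high dose, and from 2.27 to 279 CPM with a median of 90.0 CPM in controls, ranges that overlap widely.

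No member fell by the mean of the 7 sets at the high dose. FMt003030, at rank 150 the last member, had the lowest adjusted p in that direction without passing, with -0.30 ± 0.11 and an adjusted p of 0.0944 by edgeR. Between the doses in 6D_48H it did fall, with 1.03 to 3.59 CPM and a median of 2.67 CPM at the high dose, and 3.63 to 7.37 CPM and a median of 5.83 CPM at the low dose. It was the 1 member, of 149 tested and 14 called lower, whose libraries did not overlap between the 2 groups. Of all 30247 transcripts tested, 7 or 0.0231% were called lower without overlap, among 359 called lower. The log2 fold change of FMt003030 was -1.12 ± 0.24 with an adjusted p of 0.00575 by edgeR. FMt008032 (rank 101) followed with -0.84 ± 0.31 and an adjusted p of 0.0951 by edgeR. It was present in some libraries and near 0 in others of each group except the high dose in 5D_48H, where it ran from 3.17 to 6.41 CPM. In 6D_48H it ran from 0.205 to 18.1 CPM in controls, from 0.093 to 20.3 CPM at the low dose and from 0.0761 to 13.7 CPM at the high dose.

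Across the 9 control group means, on log2 of CPM with an offset of 0.5, the members most like FMt028942 were those ranked 18, 33 and 65, each with a Pearson correlation of 0.99. Those most like FMt020134 were ranked 33, 24 and 36, also with 0.99. FMt003030 was most like the members ranked 50, 20 and 17, with 0.96, 0.96 and 0.95, and FMt008032 like those ranked 97, 105 and 86, with 0.99, 0.98 and 0.98. The 9 points share the stage order by which all members were chosen, so values near 1 describe that choice too.

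Differences of a dose effect between sets were tested where both controls were independent. They come from the fit of 21 groups with its single filter, so the 149 members tested include some that did not pass in 4D_24H or 5D_6H alone. The high-dose effect in 5D_48H against that in 5D_6H gave 0 calls by edgeR and limma-voom, with 17 of 149 members and 7.34% of all transcripts under an unadjusted p of 0.05, 0.216% of all transcripts called and a median difference of 0.41 with 109 above 0. The high-dose effect in 6D_24H against that in 4D_24H gave 3 members lower and 0 higher, where 0.012% and 0.0479% of all transcripts were called, with a median difference of -0.67 and 130 of 149 below 0. These 3 members did not pass the filter on low counts in 4D_24H alone, where 110 members did. Without the libraries that stood apart this difference gave 0 calls and a median of -0.25. The low-dose effect in 6D_24H against that in 4D_24H gave 4 lower and 1 higher, where 1.59% and 1.24% of all transcripts were called, with a median of -0.36, and 4 lower and 1 higher without those libraries. limma-voom called 1 lower, with 1.51% of all transcripts. Among the 4 lower by edgeR, the member ranked 102 did not pass the filter on low counts in 6D_24H alone.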

How the data were processed

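Read counts per transcript, whole numbers without normalization, were used as the authors deposited them for 266 of 270 labelled libraries. Per the labels' protocols, library preparation used Lexogen's SENSE mRNA-Seq kit. Per the design text, reads were mapped to known transcripts of the species. The submitters' processing notes name bcl2fastq 2.19.1, limma 3.40.6 and edgeR 3.26.8, with no role. For the aligner, the counting rule and the build, the name or version was not given in the sources used here. In the table, the lowest total of a transcript was 166 counts, so rarer ones are not analysed here, and reads shared by near-identical transcripts make single values uncertain.

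CPM described levels. Tests used edgeR 4.0.16 in R 4.3.3 on the counts: TMM scaling, filterByExpr, robust quasi-likelihood F-tests, and Benjamini-Hochberg adjustment over all transcripts tested. Each set was fitted alone with its 3 doses, the 21 groups of 7 sets together, and the 9 control groups together. Standard errors are the log2 fold change divided by the square root of F. The procedure was tested on simulated counts. Alternatives were DESeq2 1.42.0, limma-voom 3.58.1, RLE scaling, no filter, pairs of groups alone, sums of consecutive transcripts, other thresholds, left-out libraries and sets, and a replicate block. DESeq2 was run within sets only. Python 3.11.15 with NumPy 2.4.6, pandas 2.3.3 and matplotlib 3.10.9 made tables and plots.

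The members and lists were chosen with earlier results of these data known. Named identifiers are the 2 members of largest positive and the 2 of largest negative mean high-dose effect among those past the threshold, or, where fewer than 2 passed, those of lowest adjusted p. Leaving out the libraries that stand apart was added after seeing the data.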

Additional observations from a re-analysis of the deposited data

Results flagged for a closer look

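A library was picked out where its gap to the nearest other library of its group, divided by the group's range, passed Dixon's 95% critical value. For normally distributed values chance alone passes it in about 1 in 20 groups. That rate need not hold for CPM, where levels near 0 in most libraries may pass more often. For the summed CPM of the members on the linear scale, library 34 of the high dose in 4D_24H with 1665 CPM and library 14 of the 6D_6H controls with 4846 CPM were picked out. On the log2 scale library 37 of the high dose in 6D_6H with 520 CPM and library 37 of the high dose in 6D_48H with 3012 CPM were added. FMt028942 stood at 15.3 CPM in the same library 34, at 73.2 CPM in the same library 14, at 1.08 CPM in library 10 of the 4D_24H controls and at 6.58 CPM in library 38 of the high dose in 5D_6H. FMt020134 stood at 61.6 CPM in library 34, at 196 CPM in library 14, at 10.4 CPM in library 10 of the 4D_24H controls, at 0.249 CPM in library 16 of the low dose in 4D_6H, at 156 CPM in library 26 of the low dose in 5D_24H and at 488 CPM in library 11 of the 6D_24H controls.

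FMt008032, which was near 0 in some libraries of most groups, was picked out 11 times, always as a high value. At the high dose it had 2.22 CPM in 4D_6H library 35, 3.30 CPM in 4D_24H library 38, 4.85 CPM in 4D_48H library 41, 8.50 CPM in 5D_24H library 32 and 7.28 CPM in 6D_6H library 34. At the low dose it had 2.25 CPM in 4D_24H library 29 and 4.27 CPM in 4D_48H library 19. In controls it had 1.56 CPM in 4D_6H library 11, 10.2 CPM in 4D_48H library 2, 5.37 CPM in 5D_6H library 1 and 19.5 CPM in 5D_48H library 14.

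For 8 members the difference of a dose effect between 6D_24H and 4D_24H passed edgeR's test with Benjamini-Hochberg adjustment. Of these, the members ranked 8, 12 and 18 did not pass the filter on low counts in 4D_24H alone, nor did the member ranked 102 in 6D_24H alone. At the high dose the difference in log2 fold change was -3.79 for the member ranked 8, -3.56 for rank 12 and -3.12 for rank 18, with adjusted p of 0.00855, 0.0498 and 0.0244. In 4D_24H the member ranked 8 had 26.6 CPM as its highest and 0.365 CPM as its median high-dose value, and 0 of these calls remained without the libraries that stand apart. At the low dose the difference was -1.57 for rank 66, -2.07 for rank 72, -1.19 for rank 33, -6.49 for rank 102 and 1.52 for rank 49, with adjusted p of 0.0138, 0.0178, 0.0354, 0.0191 and 0.027. The member ranked 102 had a median of 0.181 CPM at the low dose and of 0.0311 CPM in controls in 6D_24H, where its highest control held 48.8 CPM. In 4D_24H its low dose had a median of 0.812 CPM and a highest value of 40.9 CPM, so its difference rests on single libraries.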

How the results depend on the processing

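Over the alternatives, 261 medians moved by less than the spread and 1 by more. This spread was the SD between libraries of the groups compared, on the log2 scale. A small median could therefore lose its whole size and still count as unmoved. Of the counts, 331 stayed within 1.5 times the reported one and 43 did not. A count of 0 that remained 0 is among those that stayed, and fits with 1 library left out are among the alternatives. Of the values of the 4 named members, 41 kept their side of the threshold and 7 did not. The cause was not tested for the rest. DESeq2 called 6 members at the high dose in 5D_48H, 2 in 6D_24H, 8 between the doses in 5D_48H and 30 at the low dose in 6D_24H. limma-voom called 1 at the high dose in 5D_48H, 1 at the high dose in 6D_24H and 25 at the low dose in 6D_24H, and for the mean of 7 sets 0 at the high dose and 3 between doses, with 1 for each difference of effects at 24 h. The high dose in 5D_48H gave 1 call when only the 2 groups were fitted. For the mean of 7 sets the high dose gave 2 calls with summed consecutive transcripts, 0 without the libraries that stand apart, and, leaving out 1 set, 0 without 4D_24H, 4D_48H or 5D_48H, 2 without 5D_24H, 6D_6H or 6D_24H, and 11 without 5D_6H. The low dose gave 1 without 4D_24H. Between the doses it gave 3 without the libraries that stand apart, and 4, 5 and 7 without 4D_24H, 5D_48H and 6D_24H. The difference of the high-dose effect at 24 h gave 0 without those libraries, with a median of -0.25. Leaving out 1 library gave 9 to 25 calls at the low dose in 6D_24H, the ends being low-dose libraries 19 and 25. FMt028942 did not pass without the 4D_24H set (0.28), without 4D_48H (0.59), without 5D_48H (0.66), with summed transcripts (0.32) or by limma-voom (0.44), and FMt020134 passed without 5D_6H (0.88, adjusted p of 0.00534 by edgeR). The choice of members shared 141 to 148 of 150 when 1 control library was left out, 81 with a limit of 0.5 CPM and 86 with a limit of 2 CPM. By 5 days 39 members had appeared at 2 CPM and 7 at 5 CPM, by 6 days 60 at 5 CPM, and by 7 days 88 at 5 CPM. Earlier dates at the low dose numbered 5 at 0.5 CPM and 19 at 2 CPM, later ones 21 at 2 CPM and 29 by medians. At the high dose 14 were earlier and 9 later at 0.5 CPM, 35 earlier and 17 later at 2 CPM, 19 earlier and 21 later by medians, and 12 earlier and 15 later without the libraries that stand apart. With a replicate block on the library number, the 10 control comparisons called 22 (5D_24H against 4D_48H) to 119 members (6D_6H against 5D_6H), in each case within 1.5 times the count without it. Same-numbered libraries deviated together with correlations from -0.35 to 0.43 and medians near 0, so the numbers do not pair them. Depth limits members below about 1 CPM, many of which the filter removed where a young set was fitted alone. The fits of several sets together kept 149 or 150 members.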
